A study of Bos taurus with 6 samples.

Results

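Transcripts of the proteasome, the protease complex that degrades proteins tagged with ubiquitin, were compared between bovine blastocysts and degenerative embryos on the Affymetrix Bovine Genome Array. Members were all probe sets whose single annotated gene symbol began with PSMA, PSMB, PSMC, PSMD, PSME, PSMF or PSMG. The rule gave 46 probe sets of 40 genes, out of 24036 probe sets in the deposited table and 9155 genes that had a probe set to themselves by symbol. Embryos of both groups were produced by in vitro fertilization, had compacted by day 5 and were graded by morphology on day 8. Blastocysts (3 pools) showed a blastocoele and an inner cell mass that could be told from the outer layer, whereas late degenerative embryos (3 pools) had not completed the transition from morula to blastocyst. Each pool held 20 embryos and was measured on its own array, and the pools of each group carried the letters A, B and C. Pools mixed embryos of several cows and bulls, and the same bulls served more than a single pool, so the pools are not fully independent. Values are GCRMA expression on the log2 scale, in which a step of 1 is a 2-fold change in signal, and all differences are degenerative embryos minus blastocysts. In pooled embryos, fewer cells of a type and less RNA per cell cannot be told apart.

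The proteasome is built from a barrel-shaped core particle and a regulatory particle that sits on its ends. The core stacks rings of alpha subunits (PSMA genes) around rings of beta subunits (PSMB genes), and only some of the beta subunits cut proteins. The regulatory particle has a base, with a ring of ATPases (PSMC genes) that unfold substrates, and a lid, whose PSMD14 subunit removes the ubiquitin chain before degradation. PSMD5, PSMD9, PSMD10 and the PSMG proteins are chaperones that assist assembly and are not part of the finished complex. PSME proteins are alternative activators that bind the core. In the early embryo, the ubiquitin-proteasome system is known for the removal of maternal proteins as control passes to the embryonic genome.

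Of the 46 probe sets, 6 belonged to the alpha ring, 8 to the constitutive beta ring, 3 to inducible catalytic subunits, 13 to the base, 5 to the lid, 3 to chaperones of the base, 3 to chaperones of the core and 4 to activators and the inhibitor PSMF1. The remaining probe set measured PSME3IP1, a protein named for its binding to the activator PSME3, which is not itself a proteasome subunit. PSMA2, PSMA8, PSMB11, PSMD3, PSMD7, PSMD8, PSMD12, PSME3 and PSMG4 were not analysed here, because no probe set carried their symbol alone. The lid was thus seen through only 4 of its genes. All 46 probe sets varied between arrays and entered the tests, and 44 reached a mean of 5 or more in blastocysts or in degenerative embryos, as did 61.7% of all probe sets tested. The median of their mean values was 11.99, against 6.36 over the 18937 probe sets tested. Signals of different probe sets depend on their probes as well as on the transcript, so levels were compared between pools and not between genes.

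The measured markers of the embryonic lineages had a mean of 5 or more in both groups, except HNF4A of the hypoblast (4.63 and 4.78). Of 9 trophectoderm markers listed, 5 were measured, and their summed log2 values ran from 56.8 to 59.9 in blastocyst pools and from 51.7 to 57.0 in degenerative pools. The lower sums rest on PAG2 and IFNT2, with differences of -2.41 and -1.01 (-1.51 and -0.07 without both A pools), while KRT18, TEAD4 and KRT8 had differences of -0.06, 0.02 and -0.04. The 3 markers measured of 5 listed for the inner cell mass (POU5F1, SOX2 and KLF4) summed to 33.3 to 33.8 and to 34.2 to 37.2, and the 4 of 5 for the hypoblast to 32.7 to 36.5 and to 35.1 to 36.5. All 3 inner cell mass markers were higher in mean in degenerative embryos. POU5F1, SOX2 and KLF4 had differences of 0.48, 1.03 and 0.51 (0.35, 0.50 and 0.27 without both A pools). Pools of POU5F1 and KLF4 did not overlap between the groups, and those of SOX2 did. CDX2, GATA3 and NANOG were not analysed here. Of cumulus and granulosa cells, 7 of 8 markers varied, with sums of 34.0 to 45.3 and of 36.4 to 46.5, and AMH lay at the floor of 2.12 on all arrays. These sums hide shifts both ways, with 4 markers higher and 3 lower in degenerative embryos. INHBA and PTX3 had differences of 2.51 and 3.02 and CYP19A1 of -2.08, with standard errors of 1.14, 1.88 and 1.09. The pools of INHBA did not overlap between the groups, and those of PTX3 and CYP19A1 did. Of 4 sperm markers, 2 varied (7.86 to 10.9 and 7.96 to 9.57) and PRM2 and ODF1 lay at the floor. Of 6 immune cell markers, 3 varied (8.34 to 8.88 and 7.34 to 9.85), all with means under 5 in both groups, and PTPRC, the defining surface protein of leukocytes, lay at the floor in each of its probe sets. No marker passed the test, and the part of cell composition in the results was not tested. Both A pools stood apart from the others of their group. Values of degenerative pool A differed from those of degenerative pool B by a median of 0.517 over all probe sets tested and of 0.436 over the proteasome probe sets, whereas degenerative pools B and C differed by 0.216 and 0.187. Blastocyst pool A differed from pools B and C by 0.268 and 0.282 over all and by 0.273 and 0.379 over the proteasome probe sets, and blastocyst pools B and C differed from each other by 0.126 and 0.173.

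No proteasome probe set reached an adjusted p of 0.15 or less (limma with Benjamini-Hochberg adjustment over all probe sets tested), a level reached by 4 probe sets or 0.0211% of those tested, and the smallest adjusted p was 0.571. At an adjusted p of at most 0.25 the count was again 0 (0.158% over all), as it was with SAM at a false discovery rate of 15% (0.354% over all) and of 25% (4.64% over all). An unadjusted limma p under 0.05 was found for 1 of 46, or 2.17%, against 8.61% of all probe sets tested. It was higher in degenerative embryos, where the share over all was 3.34%, and 0 members were lower (5.27% over all). The count was 6 of 46 without degenerative pool C, where the share over all probe sets was 11.9%, 5 of 46 with the pool letter as a block (9.45% over all), and between 0 and 2 without any other pool. All 3 pools of a group lay above all 3 of the other for 4 of 46 probe sets, or 8.7%, against 15.4% over all, with 2 higher (6.48% over all) and 2 lower (8.93% over all). Fewer pools overlap less often, and without a single pool this count was 5 to 17 of 46. It was 12 (26.1%, and 21.8% over all) without blastocyst pool C and 17 (37%, and 28.2% over all) without degenerative pool C, and its share was below that over all probe sets without any other pool.

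The differences were split evenly, with 24 probe sets higher and 22 lower in degenerative embryos and a median of 0.01, against 0.00 for all that were tested. A difference under 0.5 in either direction was found for 40 of the 46 (87%, and 68.7% over all), and a difference over 1 for only 2, the inducible subunits PSMB8 and PSMB9 (4.35%, and 10.9% over all). The 95% confidence interval of the difference lay within 2-fold in both directions for 30 of the 46 (65.2%), against 45.3% over all. For the proteasome probe sets outside these 30, the interval reached beyond 2-fold in at least a single direction. Among bright probe sets, those whose mean was 10 or more, the corresponding shares were 24 of 35 (68.6%) and 52.1%. The median size of the difference, in either direction, was 0.29 for these 35 and 0.28 for all bright probe sets. Among bright probe sets the median size of the difference was thus no smaller in the proteasome. An unadjusted limma p under 0.05 was found for 1 of these 35 (2.86%), against 15% of all bright probe sets. The groups did not overlap for 4 of the 35 (11.4%), against 23.9%. Brightness was matched only in part, with a median of the mean values of 12.34 for the 35 and 11.23 for all bright probe sets.

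**Figure D1:**
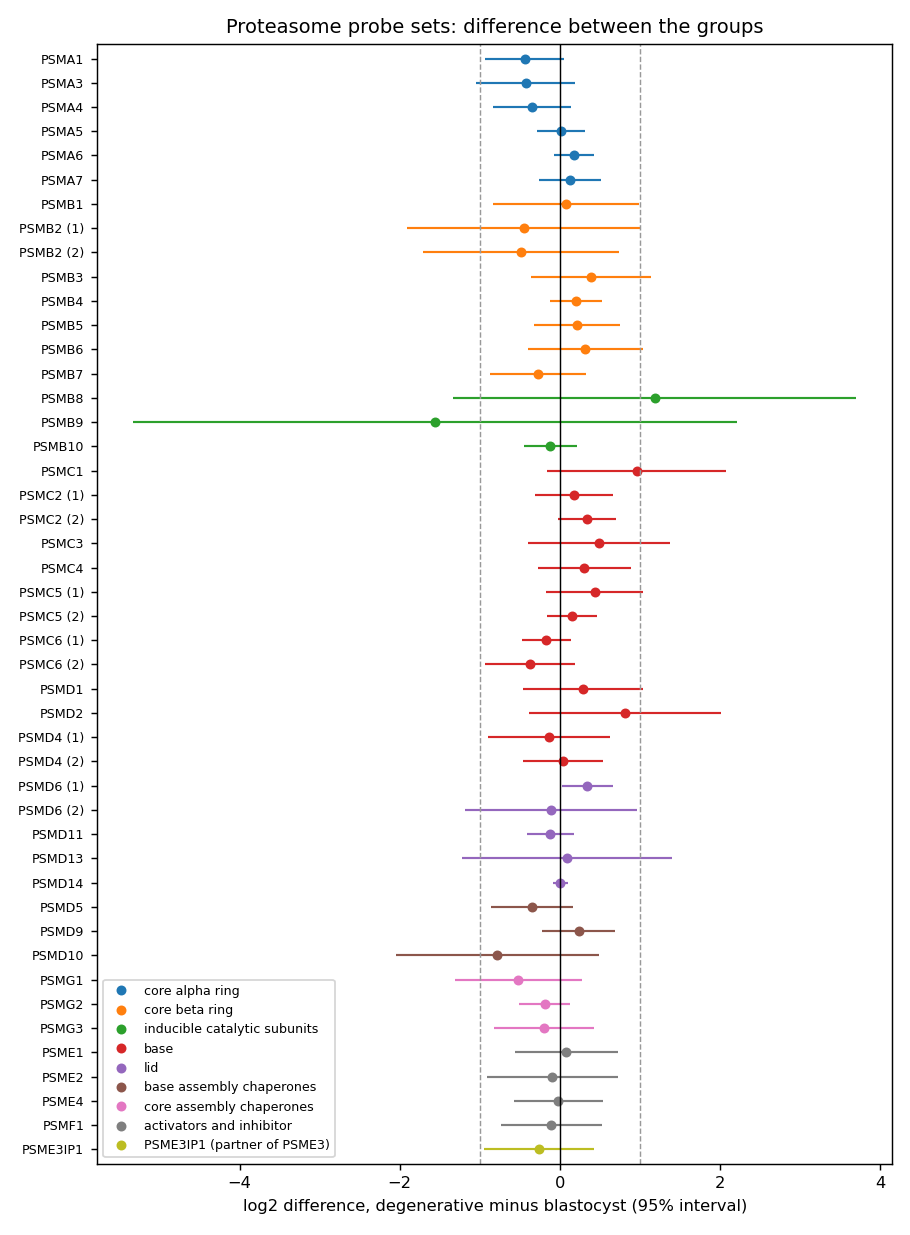
Log2 difference between degenerative embryos and blastocysts (horizontal axis) for each of the 46 probe sets (vertical axis), coloured by part of the proteasome. Points are differences between means of 3 pools, bars are 95% confidence intervals from limma, dashed lines mark a 2-fold change, and numbers in parentheses separate probe sets of the same gene. Every bar except that of the first PSMD6 probe set crosses 0, and PSMB8 and PSMB9 have the widest bars.

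The alpha subunits, which form the outer rings of the core and the gate to its channel, were split between 3 lower and 3 higher in degenerative embryos, with a median difference of -0.16. PSMA1 had values of 12.49, 12.62 and 12.55 in blastocyst pools A, B and C and of 11.80, 12.08 and 12.48 in degenerative pools A, B and C. All 3 degenerative pools thus lay below all blastocyst pools, with degenerative pool C close under them. The difference was -0.44 (standard error 0.19, adjusted p = 0.612 from limma, n = 3 pools each). PSMA3 and PSMA4 were lower in mean by like amounts, with differences of -0.42 and -0.35, and both had their lowest value in degenerative pool A. Without both A pools these differences were -0.16 and -0.07, and that of PSMA1 was -0.31. PSMA5 (0.02), PSMA6 (0.18) and PSMA7 (0.13) lay on the other side of 0, with standard errors of 0.12, 0.10 and 0.15. The alpha subunits are needed in equal numbers in each ring, but their transcripts were not shifted in a single direction here.

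The constitutive beta ring, which carries the active sites, had 5 probe sets higher and 3 lower, with a median difference of 0.14. PSMB5, the chymotrypsin-like subunit, had values of 11.96, 12.15 and 12.33 in blastocyst pools A to C and of 12.36, 12.70 and 12.03 in degenerative pools. The groups overlapped, and the difference was 0.21 (standard error 0.21, adjusted p = 0.737 from limma). PSMB6, the caspase-like subunit, was at 11.46, 12.07 and 12.39 in blastocysts and at 12.07, 12.37 and 12.42 in degenerative embryos. Its lowest value was in blastocyst pool A, and its difference of 0.32 (standard error 0.27) was 0.06 without that pool. PSMB7, the trypsin-like subunit, was at 12.27, 12.40 and 12.47 and at 11.64, 12.25 and 12.43, a difference of -0.27 (standard error 0.23) with the lowest value in degenerative pool A, -0.04 without that pool and -0.43 without degenerative pool C. The difference of PSMB5 was 0.05 without degenerative pool B, 0.12 without blastocyst pool A and 0.38 without degenerative pool C. For PSMB5 and PSMB7 the 95% interval lay within 2-fold, and for PSMB6 it reached 1.04 on the upper side. Of the noncatalytic subunits, PSMB1, PSMB3 and PSMB4 had differences of 0.08, 0.39 and 0.20. Without both A pools these were 0.17, 0.003 and 0.12. Blastocyst pool A was the lowest of the blastocyst pools in all 8 probe sets of the ring. PSMB2 was lower in mean in both of its probe sets, by 0.45 and 0.49 on the log2 scale, and in both degenerative pool A was the lowest of all 6 pools. It differed from the mean of degenerative pools B and C by -1.71 in the brighter probe set and by -1.41 in the other. Without both A pools the differences of PSMB2 were -0.07 and -0.19.

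Inducible catalytic subunits take the place of PSMB5, PSMB6 and PSMB7 in the immunoproteasome, a form known from immune cells and from cells exposed to interferon gamma. PSMB9 and PSMB8 had the largest pooled standard deviations among the 46 probe sets, 1.91 and 1.28 on the log2 scale, whereas that of PSMB10 was 0.161. PSMB9, which takes the place of PSMB6, had values of 7.41, 8.44 and 8.87 in blastocyst pools A, B and C and of 3.71, 8.48 and 7.85 in degenerative pools. Degenerative pool A was far below the other pools, which lay between 7.41 and 8.87. The difference was -1.56, with a standard error of 1.44 and an adjusted limma p of 0.737. It was -0.08 without degenerative pool A, -0.49 without both A pools, and between -2.46 and -1.25 without any other pool. The same pool had the lowest values of the trophoblast genes IFNT2 (10.45, against 12.95 to 13.54 in the other pools) and PAG2 (8.83, against 11.37 to 13.17), but not of KRT18 (15.52, against 15.17 to 15.65) or KRT8 (8.58, against 6.70 to 9.21), and TEAD4 was at 8.33 (8.43 to 9.24 in the others). Their part in the value of PSMB9 was not tested. PSMB8, which takes the place of PSMB5, was dim, at 2.15, 2.66 and 4.55 in blastocysts and at 2.97, 5.54 and 4.40 in degenerative embryos. The groups overlapped and both means were under 5. The mean difference was 1.18, with a standard error of 0.96 and an adjusted limma p of 0.737. Leaving out degenerative pool B gave 0.57 and leaving out blastocyst pool A gave 0.70, while 1.85 was found without degenerative pool A and 1.90 without blastocyst pool C. PSMB10, which takes the place of PSMB7, was dim and nearly level, at 3.26, 3.26 and 3.66 in blastocysts and at 3.26, 3.30 and 3.26 in degenerative embryos. Its difference of -0.12 (standard error 0.13) was 0.01 without blastocyst pool C. GCRMA compresses dim values, so the small spread of PSMB10 does not show steady expression. The constitutive and the inducible subunits are shown side by side in the plot of catalytic subunits.

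**Figure D2:**
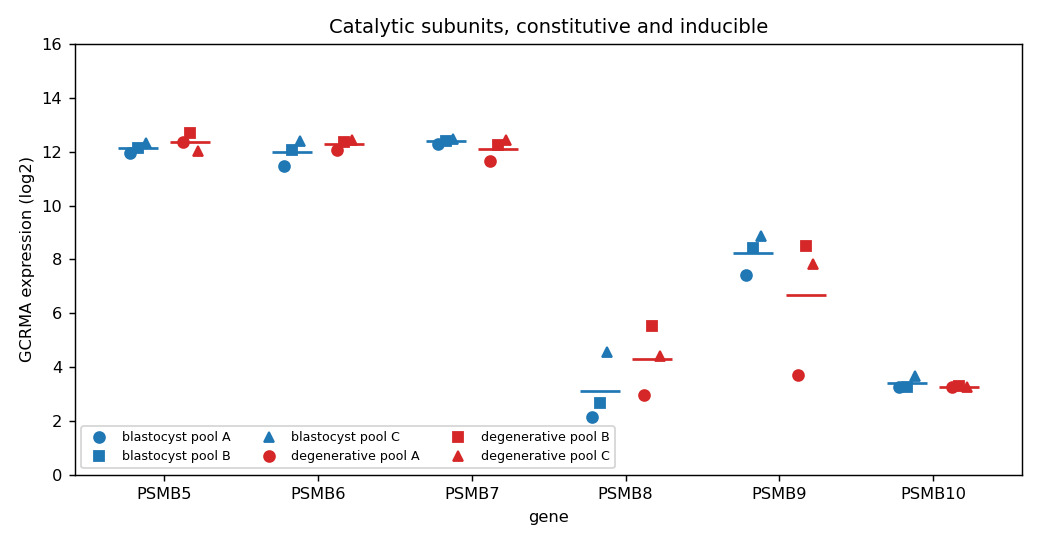
Log2 GCRMA values (vertical axis) of the constitutive catalytic subunits PSMB5, PSMB6 and PSMB7 and of the inducible subunits PSMB8, PSMB9 and PSMB10. Points are single pools of 20 embryos (blastocysts in blue, degenerative embryos in red, the letter given by the symbol's shape), and horizontal lines mark the mean of a group. The constitutive subunits lie between 11.46 and 12.70 in all pools, and PSMB9 in degenerative pool A lies at 3.71.

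The base of the regulatory particle had the largest share of probe sets with a higher mean in degenerative embryos, 10 of 13, with a median difference of 0.29 and no probe set past the threshold. Over all probe sets tested, 51.7% had a higher mean. Of the ATPase probe sets, 7 of 9 were higher, covering PSMC1 to PSMC5, and both probe sets of PSMC6 were lower. PSMC1 had values of 12.76, 12.18 and 12.11 in blastocyst pools A to C and of 14.05, 13.24 and 12.63 in degenerative pools. Within each group the A pool was the highest, and degenerative pool C lay below blastocyst pool A, so the groups overlapped. The difference was 0.96 (standard error 0.43, adjusted p = 0.619 from limma). PSMC2 was at 12.96, 12.98 and 12.99 in blastocysts and at 13.59, 13.27 and 13.10 in degenerative embryos in its second probe set, with no overlap. Its difference was 0.34, with a standard error of 0.14 and an adjusted limma p of 0.595. Its other probe set overlapped between the groups, with a difference of 0.18. PSMC3, PSMC4 and PSMC5 had differences of 0.49, 0.30 and 0.44, the last being 0.15 in the second PSMC5 probe set. PSMC6 was lower by 0.17 in the brighter probe set and by 0.37 in the other on the log2 scale.

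Among the subunits of the base that are not ATPases, PSMD2, a scaffold that receives ubiquitin-like domains, had values of 11.88, 11.76 and 11.56 in blastocysts and of 13.46, 12.39 and 11.79 in degenerative pools A, B and C. The spread among degenerative pools was wide, and its pool C lay within the range of the blastocysts. The difference was 0.82 (standard error 0.46, adjusted p = 0.668 from limma) and 0.43 without both A pools. PSMD1, the other scaffold, differed by 0.29 (standard error 0.29). PSMD4, the receptor that holds the ubiquitin chain, was at 12.21, 12.62 and 12.65 in blastocysts and at 11.80, 12.63 and 12.65 in degenerative embryos. Its B and C pools were thus nearly alike in both groups. The difference was -0.13 (standard error 0.29), and the second probe set gave 0.04. In degenerative pool A the median shift of the 13 base probe sets from the blastocyst mean was 0.61, against 0.27 in pool B and 0.06 in pool C. In the same pool the alpha ring had a median shift of -0.32 and the beta ring of -0.21. The low beta ring was not particular to that pool. Blastocyst pool A had median shifts of 0.12 for the base, -0.04 for the alpha ring and -0.36 for the beta ring. Without both A pools the median difference of the base fell to 0.15. Then 11 of 13 base probe sets were higher, counting the first PSMD4 probe set at 0.0045. Over all probe sets tested, 8574 were higher and 9244 lower without these pools.

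**Figure D3:**
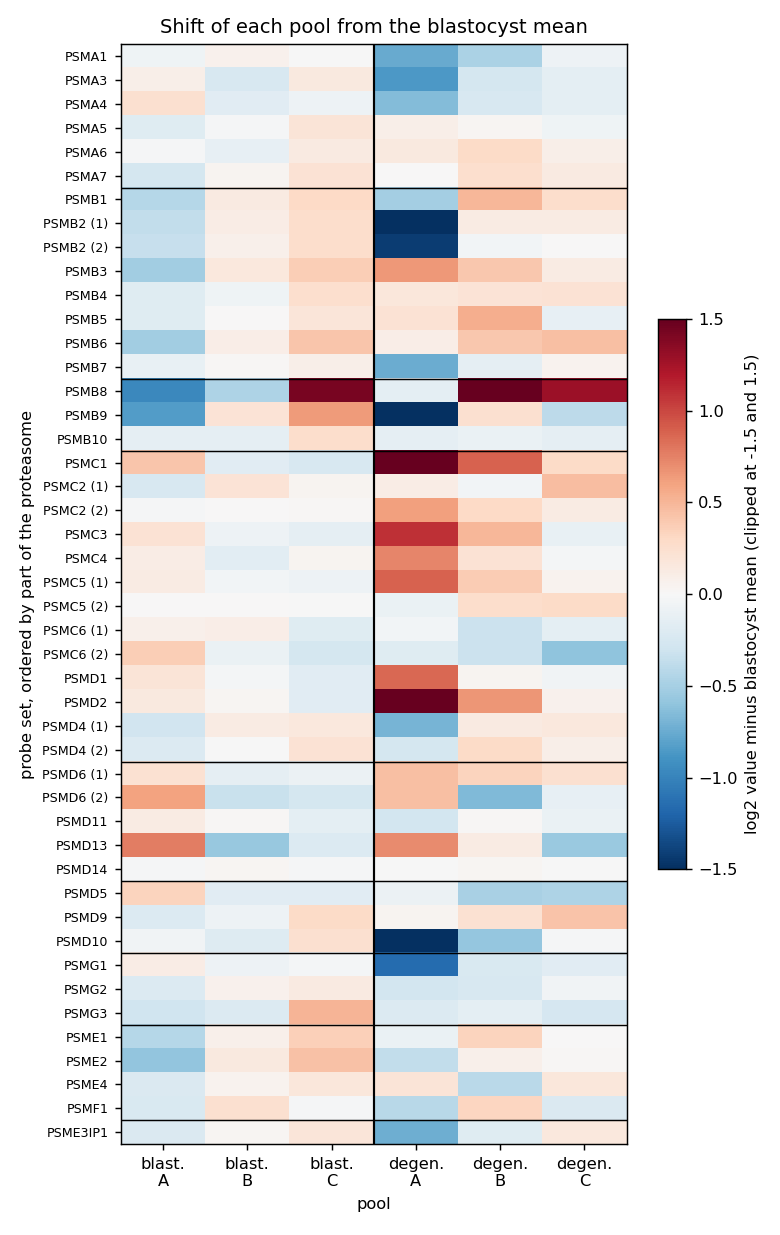
Log2 value of each pool minus the blastocyst mean of the same probe set, as a colour, red for higher and blue for lower and clipped at -1.5 and 1.5, for the 46 probe sets (rows, ordered by part of the proteasome) in the 6 pools (columns). Degenerative pool A holds most of the strong colours of both kinds, with PSMC1 and PSMD2 high and PSMB2, PSMB9, PSMD10 and PSMG1 low, and the row of PSMD14 is nearly white.

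The lid had 3 probe sets higher and 2 lower, with a median difference of 0.01. PSMD14, the deubiquitinase of the lid, had values of 13.05, 13.08 and 13.05 in blastocyst pools A, B and C and of 13.06, 13.09 and 13.06 in degenerative pools. Its range over all 6 pools was 0.0379, the smallest among the 3377 bright probe sets tested (a rank looked up after its values were seen). The 95% interval of the difference ran from -0.09 to 0.10. PSMD6, a scaffold subunit, was the only gene with an unadjusted p under 0.05. Its brighter probe set was at 10.93, 10.57 and 10.61 in blastocysts and at 11.16, 11.04 and 10.95 in degenerative embryos. All degenerative pools lay above all blastocyst pools, by a narrow margin over blastocyst pool A. The difference was 0.35 with a standard error of 0.12, and its adjusted limma p of 0.571 became 0.248 to 0.838 under 12 other settings. The second, dimmer probe set of PSMD6 had a difference of -0.11 (standard error 0.41) with overlapping pools. PSMD11 and PSMD13 had differences of -0.12 and 0.09, and the pools of PSMD13 were spread from 7.30 to 8.63.

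Among the members, chaperones that assist assembly mostly had a lower mean in degenerative embryos. This held in 2 of 3 probe sets for the base and in 3 of 3 for the core, against 48.3% of all probe sets tested. None passed the threshold. PSMD10 (gankyrin) had values of 12.09, 11.96 and 12.38 in blastocysts and of 10.41, 11.56 and 12.12 in degenerative pools A, B and C. The degenerative pools ranged over more than 1 on the log2 scale, and pool C lay within the blastocyst range. The difference was -0.78 (standard error 0.48, adjusted p = 0.696 from limma) and -0.33 without both A pools. PSMD5 was at 11.38, 10.88 and 10.88 and at 10.96, 10.56 and 10.58, a difference of -0.35 (standard error 0.20), and PSMD9 differed by 0.24 (standard error 0.18). PSMG1, which pairs with PSMG2 to build the alpha ring, was at 12.76, 12.57 and 12.61 and at 11.49, 12.42 and 12.48. The groups did not overlap, but the degenerative pool was lower by 0.15 for letter B and 0.13 for letter C on the log2 scale, and by far more, 1.27, for letter A. The difference was -0.52 (standard error 0.30, adjusted p = 0.677 from limma) and -0.14 without both A pools. PSMG2 and PSMG3 had differences of -0.19 and -0.20. That of PSMG3 rested on letter C, at -0.76, whereas the degenerative pool was higher by 0.09 for letter A and 0.06 for letter B.

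The activators and the inhibitor had mean differences between -0.10 and 0.08, and all 4 confidence intervals lay within 2-fold. PSME1 and PSME2, the subunits of the PA28 activator that is known from antigen processing, were at 10.69, 11.19 and 11.47 and at 8.60, 9.34 and 9.63 in blastocysts. In degenerative pools they were at 11.02, 11.45 and 11.12 and at 8.82, 9.26 and 9.20. Both were lowest in the A pool of each group, and their differences were 0.08 (standard error 0.25) and -0.09 (standard error 0.31). PSME4, the nuclear activator PA200, was at 10.71, 10.98 and 11.09 and at 11.12, 10.52 and 11.09, a difference of -0.02 (standard error 0.21). PSMF1, described as an inhibitor of the core, was at 8.58, 9.05 and 8.79 and at 8.39, 9.13 and 8.59, a difference of -0.10 (standard error 0.24). The sign of each of these 4 differences turned without some single pool. PSME3IP1 had a difference of -0.25 (standard error 0.26).

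**Figure D4:**
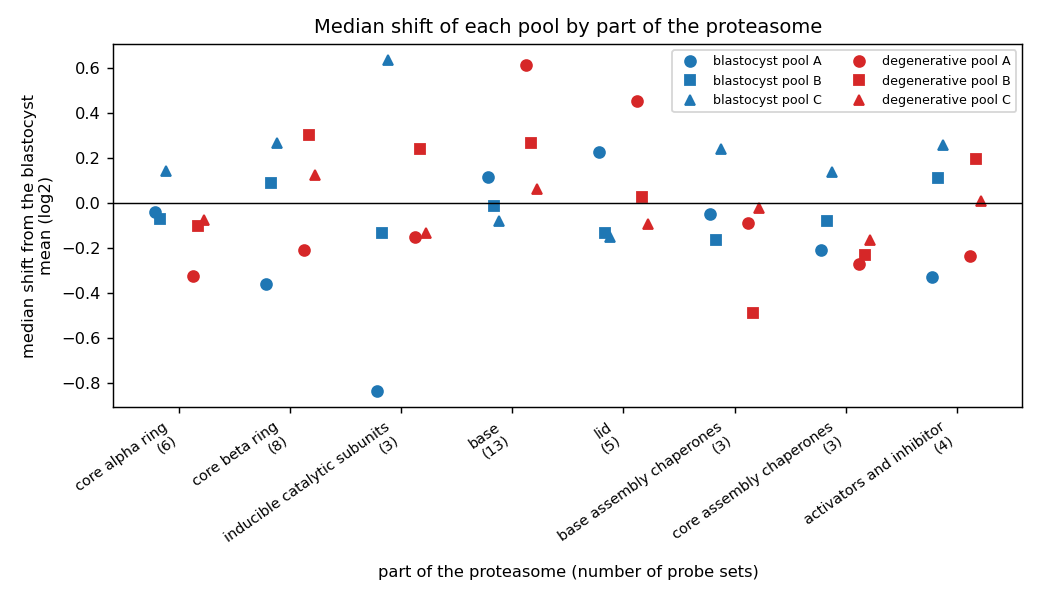
Median over the probe sets of each part of the proteasome of the shift from the blastocyst mean (vertical axis, log2 scale), with the number of probe sets in parentheses, for each pool (blastocysts in blue, degenerative embryos in red, letters by symbol shape). The base has its 3 degenerative pools at 0.61, 0.27 and 0.06, the core alpha ring has them at -0.32, -0.10 and -0.07, and the median over the inducible subunits rests on 3 probe sets.

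Pools that share a letter deviated together from their group means across all probe sets, so the degenerative and blastocyst pools were also compared by letter. A pairing by letter is not established, because pools of unlike letters were not compared in this way. The difference had the same sign for all 3 letters in 21 of 46 probe sets (45.7%), against 34% of all probe sets tested. It was higher in 10 (15% over all) and lower in 11 (19% over all). Among bright probe sets the shares were closer, 20 of 35 (57.1%) and 47.8%. With the letter as a block, 5 probe sets had an unadjusted limma p under 0.05, 3 of them higher (3.32% over all) and 2 lower (6.13% over all). PSMC1 was higher in the degenerative pool by 1.29, 1.06 and 0.53 for letters A, B and C (blocked adjusted p = 0.495 from limma). PSMD5 differed by -0.42, -0.32 and -0.30 (blocked adjusted p = 0.491 from limma). The others were the second PSMC6 probe set, PSMD9 and the first PSMD6 probe set, and none of the 5 passed after adjustment. PSMC1, PSMD9 and PSMD6 were higher and PSMC6 and PSMD5 lower in every degenerative pool than in the blastocyst pool of the same letter. The 5 were picked by a p that rests on these same differences, so their shared sign is a description.

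Where a gene had more than a single probe set, these mostly pointed the same way. Of 6 such genes, 4 had the same sign in both probe sets (PSMB2, PSMC2, PSMC5 and PSMC6), and PSMD4 and PSMD6 did not. For PSMD4 both differences were small beside their standard errors. For PSMD6 the dimmer probe set varied more between pools, with values from 6.64 to 7.90.

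Other genes of the ubiquitin-proteasome system were taken from lists of 92 genes, of which 70 were measured. None reached an adjusted p of 0.15 or less (0.0366% of the 8189 genes did), and the smallest adjusted p was 0.391. An unadjusted limma p under 0.05 was found for 11 of the 70 (15.7%), against 10.3% of all genes, with 5 higher (4.68% of all genes) and 6 lower (5.65% of all genes) in degenerative embryos. The median difference over the 70 was -0.05. Of 10 genes listed for the control of proteasome genes by NRF1 and related factors, 6 were measured, and 1 had such a p. NFE2L2 (NRF2), a transcription factor known to act on proteasome genes under oxidative stress, was at 12.99, 12.70 and 12.66 in blastocyst pools A to C and at 12.13, 11.95 and 12.15 in degenerative pools. The groups were clearly apart, and the difference was -0.71, with a standard error of 0.12 and an adjusted limma p of 0.398. KEAP1, which targets NRF2 for degradation, had a difference of 0.85 (standard error 0.40) with overlapping pools, NFE2L1 (NRF1) had 0.21 (standard error 0.13), and MAFF, at means under 5, had -0.50 (standard error 0.57).

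Of 14 other parts of the proteasome and proteins associated with it, 12 were measured, with 1 higher and 2 lower at an unadjusted p under 0.05. UBLCP1, a phosphatase that acts on nuclear proteasomes, was at 10.66, 10.55 and 10.70 in blastocysts and at 10.22, 9.95 and 9.98 in degenerative embryos. It differed by -0.58, with a standard error of 0.10 and an adjusted limma p of 0.391. UCHL5, a deubiquitinase bound to the base, had all degenerative pools below all blastocyst pools and differed by -0.50 (standard error 0.19). ZFAND2A, a stress-induced zinc finger protein that binds the proteasome, was at 6.73, 6.56 and 6.95 and at 8.26, 9.35 and 7.63. No pool overlapped, and its mean difference, 1.67 with a standard error of 0.48 and an adjusted limma p of 0.532, was larger than that of any proteasome subunit in the same direction. PITHD1, which binds the regulatory particle, differed by 0.48 (standard error 0.23).

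**Figure D5:**
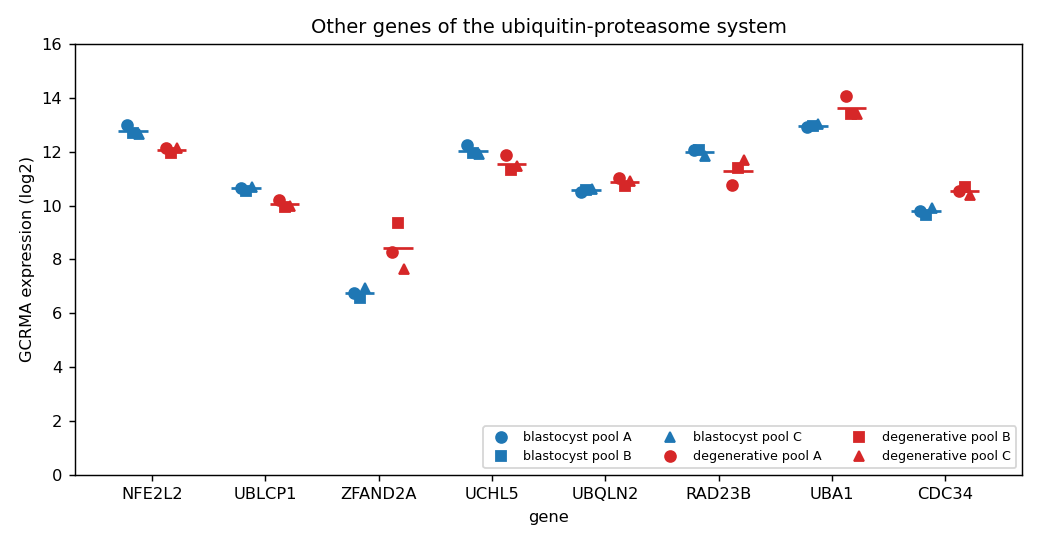
Log2 GCRMA values (vertical axis) of 8 genes of the ubiquitin-proteasome system outside the PSM families, with points, colours, shapes and lines as in the plot of catalytic subunits. The genes were picked from the 11 with an unadjusted p under 0.05, so their separation is a description. NFE2L2, UBLCP1, UCHL5 and RAD23B lie lower in all 3 degenerative pools and ZFAND2A, UBQLN2, UBA1 and CDC34 lie higher in all 3.

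Ubiquitin is attached by a chain of enzymes, and of 28 genes listed for the activating (E1) and conjugating (E2) steps, 26 were measured. Of these, 3 were higher and 1 lower at an unadjusted p under 0.05. UBA1, the main E1 enzyme, was at 12.90, 12.97 and 13.05 in blastocysts and at 14.08, 13.42 and 13.42 in degenerative embryos, with no overlap. It differed by 0.67, with a standard error of 0.21 and an adjusted limma p of 0.542. CDC34, an E2 enzyme of cullin ligases, was at 9.78, 9.64 and 9.92 and at 10.54, 10.69 and 10.38. It differed by 0.75, with a standard error of 0.12 and an adjusted limma p of 0.391. UBE2J2, an E2 enzyme of the endoplasmic reticulum, differed by 0.62 (standard error 0.20) and UBE2G1 by -0.22 (standard error 0.07). Of 5 shuttle receptors, which carry ubiquitinated proteins to the base, 4 were measured. UBQLN2 differed by 0.32 (standard error 0.10) and RAD23B by -0.71 (standard error 0.27), UBQLN1 by 0.07 (standard error 0.24) and UBQLN4 by 0.05 (standard error 0.06). UBQLN4 had the identical value of 5.28 in all blastocyst pools and in degenerative pool A. Its small standard error thus does not show a precise measurement.

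Of 12 genes of VCP, the ATPase that extracts ubiquitinated proteins ahead of the proteasome, and its cofactors, 9 were measured. FAF2 had a difference of -0.55 (standard error 0.18), VCP itself 0.32 (standard error 0.19), UBXN1 0.34 (standard error 0.27) and ATXN3 -0.14 (standard error 0.10). The COP9 signalosome, a complex related to the lid, had 7 of 9 genes measured and none with an unadjusted p under 0.05, with a median difference of -0.08. Genes of antigen processing and the interferon gamma response were also listed, some of which are known to be induced with the inducible subunits. Of these 10 genes, 6 were measured and 4 were higher, with no unadjusted limma p under 0.05. Their summed log2 values ran from 48.5 to 54.7 in blastocyst pools and from 50.8 to 58.1 in degenerative pools. IFNGR2, a chain of the interferon gamma receptor, differed by 1.04 (standard error 0.47) and TAP2 by 0.59 (standard error 0.42). B2M differed by -0.19 (standard error 0.15) and TAPBP, at means under 5 in both groups, by 1.07 (standard error 1.43). Of the 4 ubiquitin genes listed, none carried a probe set with its symbol alone, and they were not analysed here.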

How the data were processed

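RNA from 6 pools of 20 embryos, 3 for each group, was amplified and hybridized to Affymetrix Bovine Genome Arrays. The deposited values are log2 expression per probe set, made by the authors with GCRMA, for which the submitters' processing notes name version 2.14.1. GCRMA corrects the background by probe sequence, quantile-normalizes the arrays and summarises the probes by median polish. Quantile normalization fixes the distribution of each array, so a shift shared by most transcripts cannot be seen, and dim probe sets are compressed toward the floor of 2.12. Arrays have no read depth, and their number limits the precision.

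From these values, 20 control probe sets and 5079 that did not vary between arrays were removed. The other 18937 were tested with limma (version 3.58.1, R 4.3.3) by lmFit and eBayes. P-values were adjusted by the Benjamini-Hochberg procedure, with a threshold of 0.15 to match the 15% false discovery rate stated in the study's methods. SAM was re-implemented. Both were run on the whole table. Gene symbols came from the platform's annotation, and all 46 proteasome probe sets matched RefSeq genes of ARS-UCD2.0 with no change of symbol. For genes with several probe sets, values per gene are those of the probe set with the highest mean. The members, lists and tests were chosen with earlier results of these data known. Values by pool were given for proteasome genes with an unadjusted p under 0.05 and for PSMB5 to PSMB10, PSMD4, PSMD14, PSME1, PSME2, PSME4 and PSMF1, and differences for up to 4 genes of each pathway list with the smallest p. Values of further genes were picked with their results in view. What the pool letters stand for is not given in the sources used here. Same-letter pools deviated together from their groups across probe sets (r = 0.373 for A, 0.180 for B and 0.275 for C), so the letter was also used as a block. Correlations between pools of unlike letters were not compared with these. Alternatives were centring each array, a filter on dim probe sets, leaving out each pool, 1 probe set per gene, the block, an intensity trend, SAM, an adjusted p of at most 0.25 and, chosen after seeing the data, leaving out both A pools. A search of promoters for motifs, planned with the lists, was not run, and no sequences were used here.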

Additional observations from a re-analysis of the deposited data

How the results depend on the processing

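The count of proteasome probe sets called by limma was 0 under each of the 14 other settings. The count with an unadjusted p under 0.05 was 1, and it was 0 with each array centred on its median (8.99% over all probe sets) or with the filter on dim probe sets (11.6%), 5 with the replicate block (9.45%) and 3 without both A pools (12.5%). It ranged from 0 to 6 when a single pool was left out. The count with no overlap was 4, ranged from 5 to 17 without a single pool and was 13 without both A pools (41.1% over all), where fewer pools make a lack of overlap more frequent for every probe set. The block changed no other call. The median difference of the proteasome probe sets ranged from -0.07 to 0.09 without a single pool. Medians of the parts ranged from 0.19 to 0.45 for the base, -0.11 to 0.19 for the lid, -0.19 to -0.11 for the alpha ring, -0.04 to 0.27 for the beta ring, -0.43 to -0.18 for chaperones of the base, -0.35 to -0.12 for those of the core and -0.18 to 0.10 for activators and inhibitor. For the inducible subunits the filter on dim probe sets left only PSMB9, at -1.56, and without a single pool their median ran from -0.19 to 0.01.

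Of 154 values of named genes under another setting, none passed the threshold and 139 kept their direction. The cause of the 15 turns was not tested. They were found for PSME4 (0.0133 with arrays centred, and -0.12 to 0.18 without a single pool), PSME1 (-0.14 to 0.26 without a single pool, and -0.0474 without both A pools), PSME2 (-0.39 to 0.13), PSMF1 (-0.32 to 0.0515), PSMB10 (-0.19 to 0.0108), PSMD14 (-0.0023 to 0.0192) and the first PSMD4 probe set (-0.28 to 0.15, and 0.0045 without both A pools).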
